A study of Mus musculus with 12 samples.

Results

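The 32 genes described here are a set of genes of retinal bipolar cells. They were chosen by name: the rows of the gene table whose Ensembl identifier maps to the symbols of 9 transcription factors of bipolar cell identity, 12 genes of the signalling cascade of ON bipolar cells, 6 markers of bipolar subtypes and 5 receptor genes. All 32 were found among the 54532 genes listed, of which 34538 had a count in at least 1 library, and all 32 passed the filter on low counts that left 18299 genes for testing. The rule used gene names, with no threshold on a measured value.

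Bipolar cells carry the signal of rods and cones to the ganglion cells, whose axons form the optic nerve. In ON bipolar cells the glutamate receptor mGluR6 acts through the G protein Go to keep the cation channel TRPM1 closed in the dark, and light opens it. OFF bipolar cells respond through AMPA and kainate receptors instead, and GABA receptors on the axon terminals receive inhibition from amacrine cells.

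The data were RNA-seq gene counts and FPKM values (fragments per kilobase of gene, scaled to the mapped fragments of the library) of whole retinas from wild type female C57BL/6 mice aged 13 weeks, in 4 groups of 3 libraries. SHAM was the sham control, and MOG was immunized with the MOG35-55 peptide in complete Freund's adjuvant with mycobacterium and pertussis toxin, a model of autoimmune encephalomyelitis with optic neuritis. GB20 and GV16 received the same immunization, then repeated needling at the acupoint GB20 or at the control point GV16 under xylazine and ketamine anaesthesia. The methods describe 2 or 3 mice a group, 3 repeats of the experiment as biological replicates and RNA taken from each group, but not outright whether each library pooled the mice of a group or whether its number marks a repeat, so the p-values below measure the spread between these libraries. The sources used here do not give what the sham mice received in place of the peptide or whether untreated MOG mice were anaesthetised. In whole retina, fewer bipolar cells and less RNA per bipolar cell cannot be told apart.

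Libraries held 15860278 to 19194280 counts, and the 32 genes together took 0.340% to 0.364% of them. The lowest count of any of them in any library was 85, for Irx5. The tissue showed the markers of retina: markers of rods, cones, Müller, amacrine, horizontal and ganglion cells were all detected, and Isl1, a factor of bipolar and other inner retinal neurons, had a mean of 89.4 ± 3.01 CPM (counts scaled to the library size with TMM factors; SD, n = 3) in SHAM. Several of the 32 genes are not particular to bipolar cells, since photoreceptors also make Otx2, Lrit1 and Lrit3, and other retinal neurons also make Gnao1 and Rgs7.

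Promoters in RefSeq (build GRCm38.p6, from 250 bases before to 50 after each start) matched 26 of the 32 genes; Car8, Grik1, Irx5, Irx6, Neto1 and Rgs11 had no entry. The hexamer TAATCC, the type of site that OTX2 and its relative CRX are known to bind, was searched on both strands, with GGATTA as the reverse complement. It was found at 7 of the 26 genes (26.9%), against 2199 of 27025 gene symbols (8.14%), and counted over single promoters in 20% of 35 against 7.06% of 32851. The windows below are shown because they hold these matches in a channel gene of the ON cascade, a subtype marker, a synaptic protein gene and the OTX2 gene itself, and the capitals mark the hexamer in an otherwise lower-case sequence read 5′ to 3′ on the gene's strand.
Trpm1, 34 bases before the start, chr7:64153791-64153816, plus strand: gggggagtagGGATTAaggctgatta
Cabp5, 41 bases before the start, chr7:13398104-13398129, plus strand: ggaagagctcTAATCCctccactgtc
Lrit1, 50 bases before the start, chr14:37054770-37054795, plus strand: gctccctcccTAATCCccagcctgtg
Otx2, 211 bases before the start, chr14:48665305-48665330, minus strand: tgtgcccctcGGATTAtctcgttagt
Lrtm1, 73 bases before the start, chr14:29018125-29018150, plus strand: agccacagccGGATTAagaaggctgt
Cabp2 and Gabrr2 also held matches, and Cabp5 held another, 160 bases before the start. A match describes the letters in these windows and is not a measured binding site.

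Compared per length, the levels in SHAM spanned from 86.5 ± 6.90 FPKM (SD, n = 3) for Lrit1, a leucine-rich repeat protein of the photoreceptor synapse, to 1.98 FPKM for Irx5, an Iroquois homeobox factor of OFF bipolar cells. After Lrit1 came Gng13, a G protein gamma subunit, with 59.8 FPKM, Otx2 with 55.5, Pcp2 with 45.0, Sebox with 42.0 and Scgn with 41.7. The ON cascade genes spanned nearly the whole order, with Lrit1 and Gng13 at its top and Rgs7 and Nyx near its bottom. Gnao1, the alpha subunit of Go, had 31.4 FPKM, Grm6, which encodes mGluR6, 30.8, Lrit3 29.5 and Trpm1 23.0, while Gpr179, a receptor that anchors RGS proteins, had 19.6 and Nyx, which encodes nyctalopin, 5.66. The RGS proteins that speed up Go inactivation differed in level, with 15.6 FPKM for Rgs11 and 8.72 for Rgs7. Prkca had 38.3 FPKM, and the subtype markers after Scgn ran from 34.2 for Cabp5 and 33.5 for Lrtm1 through 20.4 for Car8 to 6.75 for Tacr3 and 6.67 for Cabp2. Among the receptor genes, the GABA rho subunits Gabrr1 and Gabrr2 had 38.4 and 34.9 FPKM and Gabrr3 7.80, and the kainate receptor subunit Grik1 had 15.7 FPKM against 3.22 for its auxiliary subunit Neto1. The identity factors other than Otx2 and Sebox were low, from 16.1 FPKM for Bhlhe23 down through Prdm8 (12.2), Vsx1 (9.73), Lhx4 (9.38), Irx6 (5.12) and Fezf2 (3.92) to Irx5.

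Most neighbours in this order did not differ beyond their spread. The ranges of the 3 SHAM libraries were separate from those of the next gene down only after Lrit1, Gpr179, Prdm8, Rgs7, Gabrr3, Irx6 and Neto1. The levels of Neto1 rest on a gene length of 3552 bp implied by its FPKM and counts, whereas its exons in GENCODE vM21 cover 8352 bp.

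**Figure D1:**
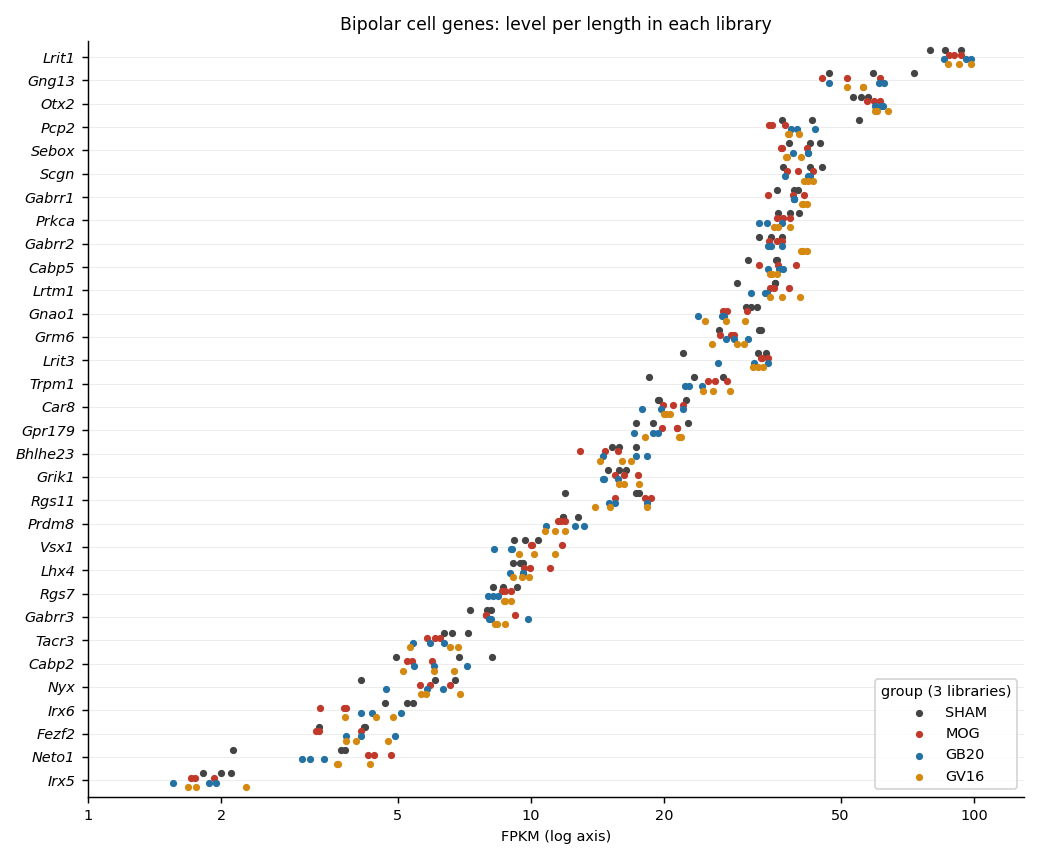
FPKM of the 32 bipolar cell genes (log axis) in each of the 12 libraries, 1 point per library coloured by group, with the genes ordered by their mean in SHAM. Lrit1 stands at the top with 86.5 FPKM in SHAM and Irx5 at the bottom with 1.98, and for most genes the 4 groups overlap.

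The first comparison asked whether bipolar cell transcripts differed in immunized retinas. Only 1 of the 32 genes was called in MOG vs. SHAM (Benjamini-Hochberg adjusted p < 0.05 in the edgeR quasi-likelihood fit), which is 3.12% of them against 1.34% of all genes tested. DESeq2 on the 6 libraries called none, against 1.44% of all genes, and an unadjusted p under 0.05 was found for Irx6, Neto1 and Pcp2 (9.38% against 13%). The gene was Irx6, an Iroquois homeobox factor of OFF bipolar cells. In whole retina, the cells that made its transcripts cannot be told. The 3 libraries of each group did not overlap for 4 of the 32 genes (12.5%), against 16.2% of all genes tested, with Lhx4 and Neto1 higher (7.87% of all genes) and Irx6 and Tacr3 lower (8.34% of all genes) in MOG. The median log2 fold change was 0.02 over the 32 genes and -0.002 over all genes.

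Irx6 (ENSMUSG00000031738, chr8:92674288-92680956 of GRCm38, plus strand) had 17.9, 18.4 and 15.98 CPM (SHAM), 12.8, 13.03 and 11.4 (MOG), 14.9, 17.2 and 14.01 (GB20), and 16.5, 15.2 and 12.9 (GV16), with replicates 1 to 3 of each group in order, here and below. The 3 MOG libraries lay below the 3 SHAM libraries, and the needled libraries lay between the 2 group means. Irx6 fell by 28.8% from SHAM to MOG, a log2 fold change of -0.49 (SE 0.12, 95% interval -0.73 to -0.24, adjusted p = 0.0365 by edgeR). Its log2 fold change was -0.18 in GB20 vs. SHAM and -0.23 in GV16 vs. SHAM, neither of which passed the test. It was 0.31 in GB20 vs. MOG (adjusted p = 0.496 by edgeR) and 0.26 in GV16 vs. MOG (adjusted p = 0.921 by edgeR), comparisons that share the MOG libraries with MOG vs. SHAM. The call did not hold with DESeq2 on the 6 libraries (adjusted p = 0.0583), nor without SHAM replicate 1 (0.14) or 2 (0.11), or without MOG replicate 1 (0.0662), 2 (0.115) or 3 (0.257), while the log2 fold change stayed between -0.55 and -0.43.

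All 8 markers of ganglion cells, the cells that optic neuritis is known to damage, were called lower in the same comparison, with a median log2 fold change of -0.92. Their summed level was 619 to 694 CPM in the SHAM libraries and 356 to 425 in the MOG libraries, against 431 to 443 in GB20 and 331 to 479 in GV16. Of other cell types, 2 of 7 microglia markers (C1qa and Csf1r) and 1 of 8 Müller cell markers (Aqp4) were called higher, and no marker of rods, cones, amacrine cells, horizontal cells, pigment epithelium, lens or blood was called, of which 1 of 6 lens genes and 3 of 5 blood genes could be tested. DESeq2 on the 6 libraries also called C1qa and Aqp4, but not Csf1r (adjusted p = 0.13). The 7 pigment epithelium markers had a median log2 fold change of 0.86 and a summed level of 16.7 to 23.8 CPM in SHAM and 33.3 to 46.6 in MOG. The part of these cells in the level of Irx6 was not tested.

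**Figure D2:**
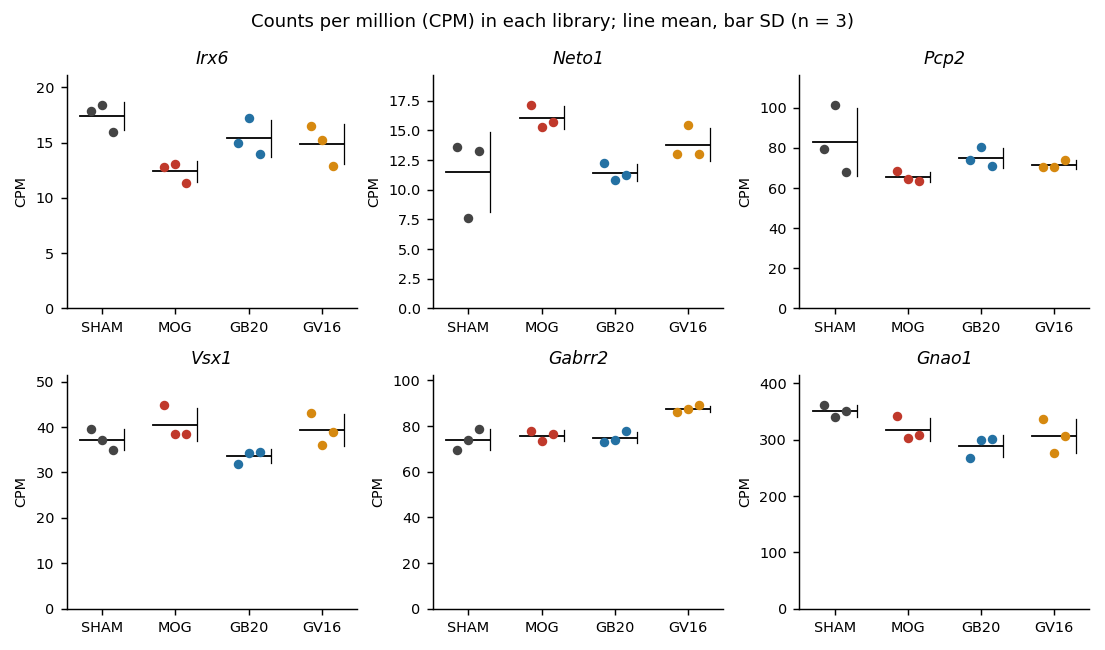
CPM (linear axis from 0) of 6 bipolar cell genes in each library, with the group mean as a line and the SD (n = 3) as a bar. Irx6 is lower in the 3 MOG libraries than in the 3 SHAM libraries, 1 SHAM library is low for Neto1 and high for Pcp2, and Gabrr2 is highest in the 3 GV16 libraries.

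The other identity factors did not pass the test in any comparison. Otx2, which specifies photoreceptor and bipolar fate, had 228, 236 and 246 CPM (SHAM), 259.8, 245 and 253 (MOG), 256, 264 and 261 (GB20), and 253, 273 and 256 (GV16). Otx2 was the least variable of the set within groups, and the needled libraries all lay above the SHAM libraries. The log2 fold change of Otx2 was 0.14 in GB20 vs. SHAM (95% interval 0.00034 to 0.27, adjusted p = 0.55 by edgeR) and also 0.14 in GV16 vs. SHAM (adjusted p = 0.442 by edgeR).

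Vsx1, a homeobox factor of cone bipolar types, had 39.7, 37.1 and 35.01 CPM (SHAM), 44.8, 38.4 and 38.4 (MOG), 31.8, 34.3 and 34.5 (GB20), and 43.2, 36.1 and 38.8 (GV16). Its 3 GB20 libraries lay below all 9 others. The log2 fold change of Vsx1 was -0.28 in GB20 vs. MOG (SE 0.09, adjusted p = 0.38 by edgeR) and -0.23 in GB20 vs. GV16, and neither passed the test.

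Lhx4, a LIM homeobox factor of cone bipolar cells, had 54.7, 52.7 and 55.7 CPM (SHAM), 63.5, 56.2 and 57.7 (MOG), 56, 55.5 and 51.5 (GB20), and 54.95, 52.98 and 57.03 (GV16). Every MOG library exceeded those of SHAM and GB20, by 8.7% (adjusted p = 0.502 by edgeR) over SHAM in the fitted values. Sebox, a homeobox gene enriched in rod bipolar cells, had 58.5, 61.8 and 52.4 CPM (SHAM), 57.2, 50.6 and 50.2 (MOG), 58.1, 57.8 and 53.2 (GB20), and 55.7, 52.1 and 51.6 (GV16), and its groups overlapped in all 6 comparisons. The lower factors Bhlhe23, Prdm8, Fezf2 and Irx5 had log2 fold changes of -0.16, -0.05, -0.13 and -0.14 in MOG vs. SHAM, and their groups overlapped.

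None of the 12 genes of the ON cascade was called in MOG vs. SHAM, where their log2 fold changes ran from -0.34 for Pcp2 to 0.19 for Trpm1. Grm6 had 146, 181 and 179.6 CPM (SHAM), 154, 147 and 157 (MOG), 151, 168 and 156 (GB20), and 159, 141 and 165 (GV16). Its MOG libraries lay inside the SHAM range, and its log2 fold change of -0.14 had a 95% interval of -0.32 to 0.03 and went to -0.08 without SHAM replicate 2. Trpm1, the longest gene of the set, had 347, 274 and 405 CPM (SHAM), 372, 414 and 387 (MOG), 340.0, 330.0 and 361 (GB20), and 382, 365 and 417 (GV16). SHAM replicate 2 was the lowest of all libraries for Trpm1, and the log2 fold change in MOG vs. SHAM went from 0.19 to 0.06 without it. The GB20 libraries of Trpm1 lay below the MOG and the GV16 libraries, with a log2 fold change of -0.19 in GB20 vs. MOG (95% interval -0.40 to 0.02).

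The genes of the proteins that assemble around mGluR6 and TRPM1 also showed overlapping groups in MOG vs. SHAM. Nyx had 35.3, 21.6 and 31.9 CPM (SHAM), 34.2, 31.03 and 29.4 (MOG), 33.2, 24.6 and 30.3 (GB20), and 36.1, 29.6 and 30.3 (GV16). Lrit3, which helps to bring nyctalopin and TRPM1 to the synapse, had 90.1, 60.9 and 93.7 CPM (SHAM), 91.2, 91.9 and 94.99 (MOG), 88.7, 72.7 and 94.4 (GB20), and 89.6, 87.7 and 91.96 (GV16). For both genes the lowest values were in SHAM replicate 2 and GB20 replicate 2, and the groups overlapped. Without SHAM replicate 2, the log2 fold change in MOG vs. SHAM went from 0.09 to -0.08 for Nyx and from 0.18 to 0.02 for Lrit3. Lrit1 ranged from 347.5 to 429.7 CPM over the 12 libraries, with a log2 fold change of 0.06 in MOG vs. SHAM. Gpr179 had 166, 181 and 218 CPM (SHAM), 189, 207 and 206 (MOG), 166, 186 and 181 (GB20), and 207, 174 and 209 (GV16). Its GB20 libraries lay below the MOG libraries, with a log2 fold change of -0.18 in GB20 vs. MOG (adjusted p = 0.638 by edgeR).

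Of the G protein genes, Gnao1 had 361, 341 and 350.3 CPM (SHAM), 342, 304 and 309 (MOG), 267, 299.6 and 302 (GB20), and 337, 277 and 306 (GV16). It was lower in both needled groups than in SHAM without overlap, with a log2 fold change of -0.28 in GB20 vs. SHAM (SE 0.08, adjusted p = 0.157 by edgeR) and -0.19 in GV16 vs. SHAM (adjusted p = 0.354 by edgeR), and -0.14 in MOG vs. SHAM, where the groups overlapped. Gng13 had 46.1, 57.1 and 36.7 CPM (SHAM), 47.6, 40.4 and 35.5 (MOG), 47.9, 48.7 and 36.5 (GB20), and 40.1, 43.9 and 43.8 (GV16). The SD in SHAM, 10.2 CPM, was the widest of its 4 groups, its log2 fold change of -0.18 in MOG vs. SHAM went to 0.001 without SHAM replicate 2, and 51.6% of the Gng13 exon bases also lie in exons of Chtf18 on the other strand, so its counts are uncertain. Rgs11 had 50.7, 73.4 and 74.7 CPM (SHAM), 65.3, 79.6 and 76.7 (MOG), 63.9, 77.3 and 65.4 (GB20), and 58.9, 64.1 and 77.2 (GV16), with SHAM replicate 1 the lowest of the 12. Rgs7 had 52.6, 49.99 and 56.4 CPM (SHAM), 52.8, 54.8 and 52.4 (MOG), 50.2, 48.5 and 50.9 (GB20), and 52.5, 53.04 and 54.7 (GV16), and the GB20 libraries were below the MOG and GV16 libraries by 6.5% and 6.6% in the fitted values.

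Pcp2, a modulator of Go made by ON bipolar cells, had 79.6, 101 and 68.1 CPM (SHAM), 68.6, 64.7 and 63.7 (MOG), 73.9, 80.5 and 70.8 (GB20), and 70.4, 70.3 and 74.2 (GV16). The MOG libraries overlapped SHAM only at the lowest SHAM value, and lay below all needled libraries. The log2 fold change of Pcp2 in MOG vs. SHAM was -0.34 (SE 0.10, adjusted p = 0.134 by edgeR) and went to -0.16 without SHAM replicate 2, and it was called without SHAM replicate 3 (-0.46, adjusted p = 0.00762 by edgeR). Exons of Pet100 on the other strand cover 51.5% of the Pcp2 exon bases, and Pet100 had means of 4.86 to 7.11 CPM. The strand setting of the counting is not known, so the counts of Pcp2 are uncertain as well. Other-strand exons also cover 29.1% of the Prdm8 and 11% of the Grm6 exon bases. Prkca, the protein kinase that marks rod bipolar cells, had 348, 327 and 366 CPM (SHAM), 348, 327 and 336 (MOG), 298, 309 and 333 (GB20), and 326, 321 and 348 (GV16). Its groups overlapped in all 6 comparisons, with a log2 fold change of -0.04 in MOG vs. SHAM (95% interval -0.19 to 0.10).

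No subtype marker was called either. Cabp5, a calcium-binding protein of rod and some cone bipolar cells, had 91.4, 91.2 and 78.96 CPM (SHAM), 100.4, 92.5 and 83.3 (MOG), 93.2, 94.1 and 87.03 (GB20), and 87.7, 91.9 and 88.9 (GV16). Scgn, which encodes secretagogin of cone bipolar cells, had 69.6, 74.04 and 60.7 CPM (SHAM), 70.4, 61.9 and 65.3 (MOG), 69.3, 69.3 and 60.8 (GB20), and 68.8, 70.98 and 67.5 (GV16). Both showed overlapping groups in all 6 comparisons, and their MOG vs. SHAM log2 fold changes were 0.08 and -0.05. Tacr3, the neurokinin receptor of some OFF bipolar cells, had 27.4, 25.2 and 24.3 CPM (SHAM), 22.1, 23.1 and 23.7 (MOG), 20.7, 24.1 and 22.4 (GB20), and 24.8, 20.3 and 25.9 (GV16), where all 3 MOG libraries lay below SHAM (log2 fold change -0.16, adjusted p = 0.521 by edgeR). Lrtm1 had 286, 233 and 286 CPM (SHAM), 305, 284 and 278 (MOG), 272, 251 and 272 (GB20), and 324, 278 and 295 (GV16), with the GB20 libraries below the MOG and GV16 libraries. Cabp2 and Car8 overlapped in all 6 comparisons, with log2 fold changes of -0.27 and 0.04 in MOG vs. SHAM, the first of which went to -0.09 without SHAM replicate 2.

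Among the receptor genes, Neto1 had the highest log2 fold change of the 32 in MOG vs. SHAM and the lowest in GB20 vs. MOG. It had 13.6, 7.59 and 13.3 CPM (SHAM), 17.1, 15.3 and 15.7 (MOG), 12.2, 10.8 and 11.2 (GB20), and 12.98, 15.4 and 13 (GV16). All 3 MOG libraries lay above the SHAM and the GB20 libraries, and MOG vs. SHAM and GB20 vs. MOG share these MOG libraries. The log2 fold change of Neto1 was 0.48 in MOG vs. SHAM (SE 0.16, adjusted p = 0.161 by edgeR) and -0.49 in GB20 vs. MOG (SE 0.16, adjusted p = 0.366 by edgeR), so it passed in neither. Without SHAM replicate 2, the lowest of the 12 libraries for Neto1, the first value was 0.27 (adjusted p = 0.502 by edgeR). GB20 vs. MOG was then called (-0.50, adjusted p = 0.0328 by edgeR), though that library is in neither group, and also with DESeq2 on the 6 libraries (adjusted p = 0.0497). Neto1 was called in GB20 vs. MOG in 3 of 18 alternatives. It was not called on leaving out any MOG or GB20 library (adjusted p from 0.472 to 0.742 by edgeR).

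Grik1, the kainate receptor subunit of OFF bipolar cells, had 107, 101 and 111 CPM (SHAM), 118, 106 and 110.0 (MOG), 99.3, 98.6 and 106 (GB20), and 118, 108 and 109.9 (GV16). Its GB20 libraries lay below the GV16 libraries by 9.5% in the fitted values and overlapped the MOG libraries. Gabrr1 had 82.8, 90.5 and 92.4 CPM (SHAM), 94.98, 79.5 and 89.95 (MOG), 90.97, 90.4 and 90.1 (GB20), and 96.4, 95.2 and 94.1 (GV16), with the GV16 libraries above SHAM and above GB20. Gabrr2 had 69.7, 73.98 and 78.6 CPM (SHAM), 77.8, 73.2 and 76.3 (MOG), 73.2, 73.8 and 77.9 (GB20), and 86.2, 87.3 and 89.1 (GV16). The 3 GV16 libraries of Gabrr2 lay above all 9 others, with log2 fold changes of 0.21 against MOG (SE 0.07, adjusted p = 0.591 by edgeR), 0.24 against SHAM (adjusted p = 0.124 by edgeR) and -0.22 for GB20 vs. GV16, none past the threshold. Gabrr3 also lay higher in GV16 than in SHAM without overlap, with a log2 fold change of 0.11.

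The second question was whether needling at GB20 changed these transcripts in immunized retinas. None of the 32 genes was called in GB20 vs. MOG, against 0.24% of all genes tested by edgeR; 4 of them (12.5%) had an unadjusted p under 0.05, against 8% of all genes, and DESeq2 called 1, Neto1, against 0.97% of all genes. The 3 libraries of each group did not overlap for 10 of the 32 (31.2%), against 15.7% of all genes tested. Irx6 and Pcp2 were higher in GB20 (7.96% of all genes), and Gnao1, Gpr179, Lhx4, Lrtm1, Neto1, Rgs7, Trpm1 and Vsx1 were lower (7.71% of all genes). The median log2 fold change was -0.01 over the 32 genes and 0.001 over all genes.

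Needling at the control point GV16 was compared with untreated MOG in the same way. None of the 32 genes was called in GV16 vs. MOG, against 0.164% of all genes tested by edgeR; 2 had an unadjusted p under 0.05 (Gabrr2 and Irx6; 6.25% against 5.3%), and DESeq2 called none, against 0.385% of all genes. Groups did not overlap for Gabrr2 and Pcp2, both higher in GV16 (6.25% against 12.6% of all genes, or 6.17% in this direction). The median log2 fold change was 0.02 over the 32 genes and 0.002 over all genes. Its median absolute value was 0.05 over the 32 genes and 0.09 over all genes tested. The same absolute medians were 0.12 and 0.13 in MOG vs. SHAM, and 0.10 and 0.11 in GB20 vs. MOG.

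Between the needling sites, none of the 32 genes was called in GB20 vs. GV16, against 0.00546% of all genes tested by edgeR; 3 had an unadjusted p under 0.05 (Gabrr2, Lrtm1 and Vsx1; 9.38% against 2.93%), and DESeq2 called none, against 0.0124% of all genes. The groups did not overlap for 8 of the 32 (25%), against 8.34% of all genes, and all 8 were lower in GB20, against 4.32% of all genes: Gabrr1, Gabrr2, Grik1, Lrtm1, Neto1, Rgs7, Trpm1 and Vsx1.

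Against SHAM, none of the 32 genes was called in GB20 (0.344% of all genes) or in GV16 (0.656% of all genes) by edgeR. An unadjusted p under 0.05 was found for 3 in GB20 (Gnao1, Otx2 and Prkca; 9.38% against 9.06%) and for 4 in GV16 (Gabrr2, Gnao1, Otx2 and Pcp2; 12.5% against 10.9%), and DESeq2 called none in either, against 0.843% and 0.73% of all genes. Non-overlapping groups numbered 4 in GB20 vs. SHAM (12.5% against 12.7%) and 5 in GV16 vs. SHAM (15.6% against 14.5%). Otx2 was higher in both, Gnao1 was lower in both, Tacr3 and Vsx1 were lower in GB20, and the 3 GABA rho subunit genes were higher in GV16; the comparisons share the SHAM libraries.

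**Figure D3:**
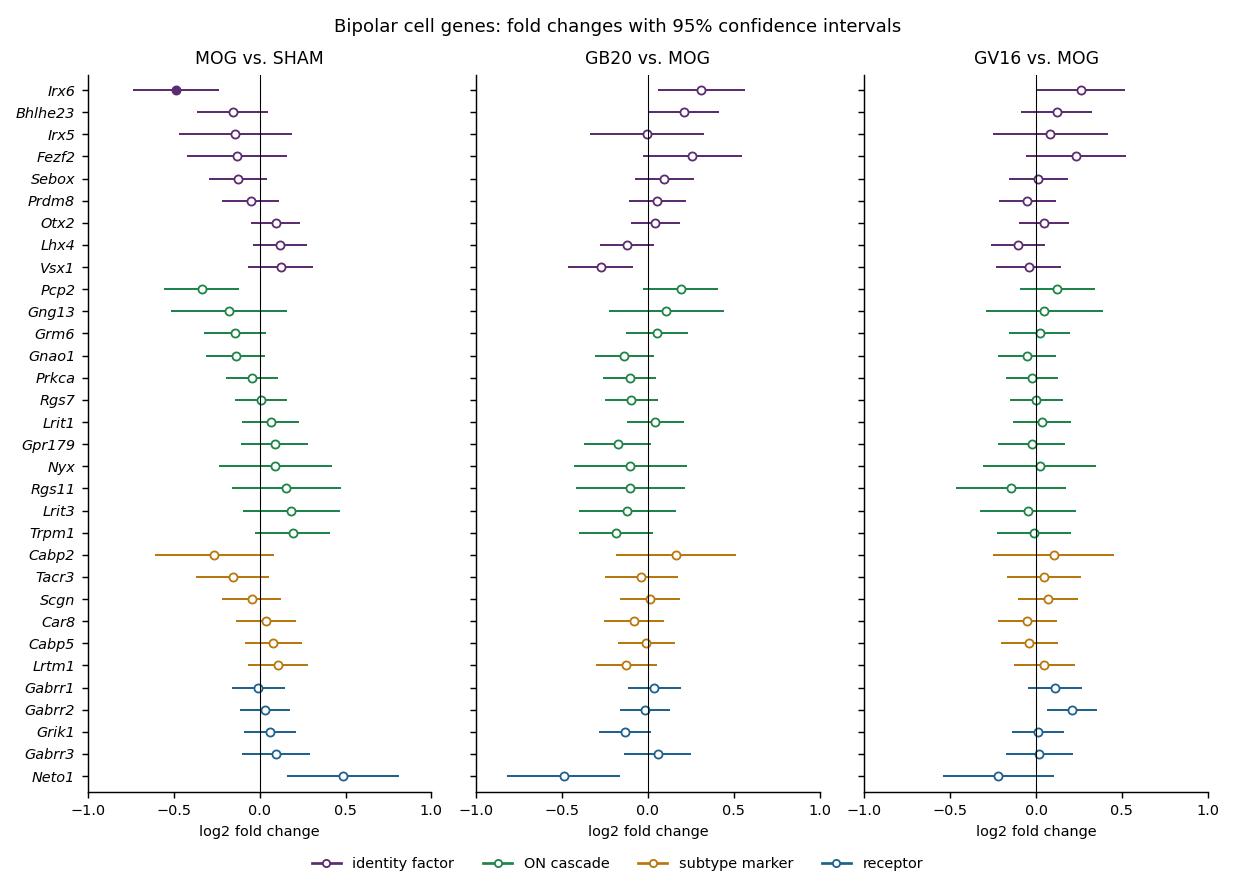
Log2 fold changes of the 32 genes in 3 comparisons, with 95% confidence intervals derived from the edgeR test as lines, colours for the role of each gene and a filled point for adjusted p < 0.05. Irx6 in MOG vs. SHAM is the only filled point, and every interval lies between -1 and 1.

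The size of a difference that these libraries allow was narrow for most of these genes. The 95% interval of the log2 fold change lay within -1 and 1, that is within a 2-fold difference, for all 32 genes in all 6 comparisons. It lay within -0.5 and 0.5 for 27 of the 32 in MOG vs. SHAM (all but Cabp2, Gng13, Irx6, Neto1 and Pcp2), for 28 in GB20 vs. MOG (all but Cabp2, Fezf2, Irx6 and Neto1) and for 29 in GV16 vs. MOG (all but Fezf2, Irx6 and Neto1). The median SE in MOG vs. SHAM was 0.09 over the 32 genes and 0.12 over all genes tested. The SD of log2 CPM within groups ran from 0.05 for Otx2 to 0.24 for Neto1, with a median of 0.11 over the 32 genes and 0.15 over all genes tested.

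Within a group, the libraries did not deviate evenly. SHAM replicate 2 and GB20 replicate 2 were each the lowest library of their group for the same 10 genes (Car8, Gabrr3, Grik1, Lrit1, Lrit3, Lrtm1, Neto1, Nyx, Rgs7 and Trpm1) and the highest for the same 9 (Bhlhe23, Cabp2, Fezf2, Gng13, Grm6, Irx6, Pcp2, Prdm8 and Scgn). In all, SHAM replicate 2 was lowest for 13 of the 32 and highest for 10, and GB20 replicate 2 for 10 and 14. The share of all genes with such shared extremes was not counted. Over all genes tested, the deviations of these 2 libraries correlated at 0.286. Over 12266 genes with a mean of at least 5 CPM, the deviation of SHAM replicate 2 from its group had a Spearman correlation of 0.35 with the GC content of the transcript and -0.55 with gene length, and that of GB20 replicate 2 had 0.41 and -0.25. Over the 32 genes the same correlations were 0.55 and -0.63 in SHAM replicate 2, and 0.64 and -0.37 in GB20 replicate 2. Other libraries deviated with length as well: over the 32 genes the correlation was 0.55 in SHAM replicate 3, 0.56 in GB20 replicate 3 and -0.54 in GV16 replicate 2, and with GC content it was -0.46 in SHAM replicate 1 and -0.41 in GB20 replicate 1. These are correlations across genes, which are not independent replicates.

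**Figure D4:**
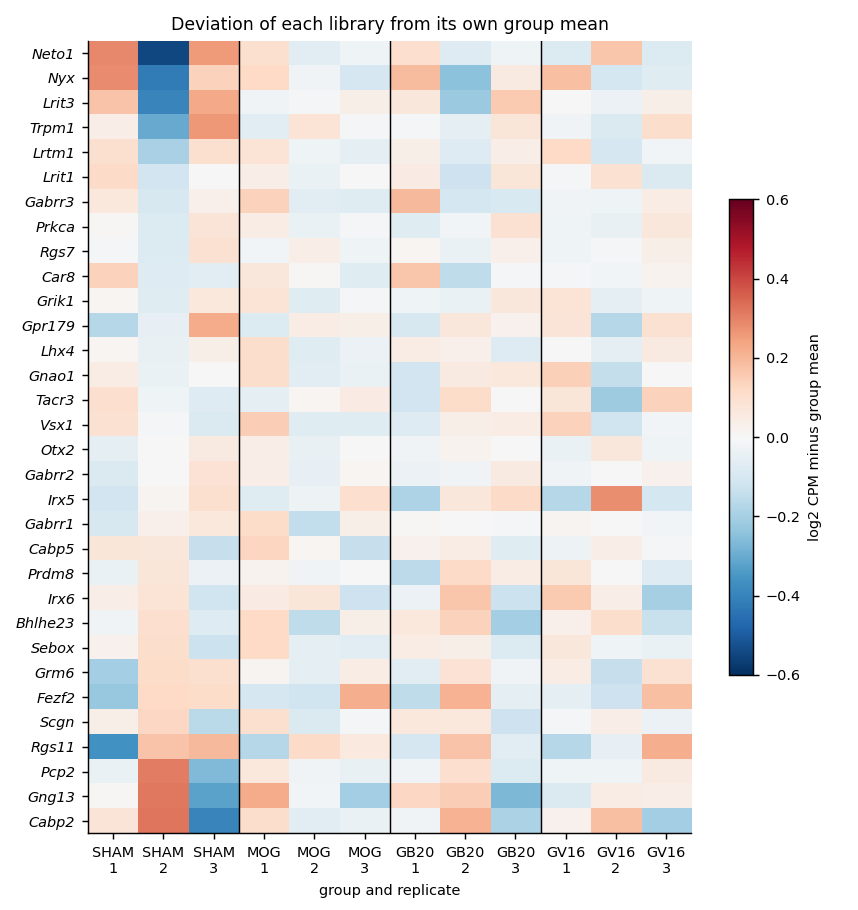
Log2 CPM of each of the 32 genes minus the mean of its own group, for the 12 libraries, with red for above and blue for below the group mean and the genes ordered by SHAM replicate 2. SHAM replicate 2 runs from low for Neto1, Nyx, Lrit3 and Trpm1 to high for Pcp2, Gng13 and Cabp2, and GB20 replicate 2 shows a paler version of the same order.

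The fold changes themselves moved with gene length. Across the 32 genes, the Spearman correlation of log2 fold change with gene length was 0.43 in MOG vs. SHAM and -0.61 in GB20 vs. MOG, comparisons that share the MOG libraries, against 0.342 and -0.365 over 12277 genes. It was -0.45 in GB20 vs. GV16, -0.49 in GV16 vs. MOG, -0.11 in GB20 vs. SHAM and 0.20 in GV16 vs. SHAM, against -0.345, -0.146, 0.027 and 0.259 over all these genes. The 8 genes with separate groups in GB20 vs. GV16, all lower in GB20, ran from Gabrr2 (2118 bp) to Trpm1 (14836 bp). With the length trend over all genes removed, the log2 fold changes of Gabrr1, Gabrr2, Neto1 and Vsx1 there grew in size. Those of Grik1, Lrtm1, Rgs7 and Trpm1 shrank. The short genes Gng13 (778 bp), Cabp2 (1358 bp) and Pcp2 (1839 bp) lay below 0 in MOG vs. SHAM and above 0 in GB20 vs. MOG. Of the 4 longest genes, Trpm1 (14836 bp) and Gpr179 (9600 bp) did the reverse, whereas Gnao1 (11120 bp) and Prkca (9047 bp) lay below 0 in both. Without SHAM replicate 2 the correlation in MOG vs. SHAM was 0.16, and without GB20 replicate 2 that in GB20 vs. MOG was -0.53. With the trend over all genes removed, the correlations over the 32 genes were 0.16 and -0.41, Irx6 was still called in MOG vs. SHAM (-0.45, adjusted p = 0.0294 by edgeR), and no other of the 32 was. GC content moved with the fold changes too. Over the 32 genes, that correlation was -0.44 in MOG vs. SHAM and 0.31 in GB20 vs. MOG, against -0.27 and 0.16 over 12266 genes. Irx6 has a GC content of 57.6% and Neto1 of 39.6%, and no trend with GC content was removed. The part of length or GC content in the values of single genes, Irx6 included, was not tested.

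**Figure D5:**
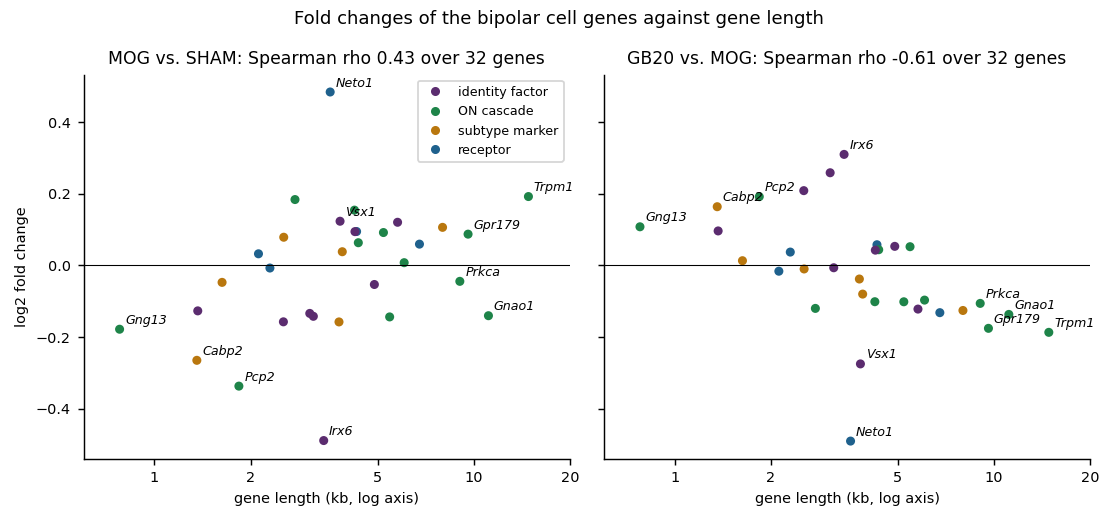
Log2 fold change of the 32 genes against gene length (kb, log axis) in MOG vs. SHAM and GB20 vs. MOG, 1 point per gene coloured by its role. The points run upward in the first panel (Spearman 0.43) and downward in the second (-0.61), with Irx6 and Neto1 away from this trend with length in both.

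Calls among other genes of the same cells and synapse are given beside the share of all genes tested that edgeR called. Of 15 further identity and ON cascade genes, none was called in MOG vs. SHAM, against 1.34% of all genes. In GB20 vs. MOG, 1 of the 15 was called, against 0.24% of all genes. Cacna1s, a calcium channel subunit, went from 31.2 ± 0.785 CPM in MOG to 23.8 ± 0.938 in GB20 (SD, n = 3), a log2 fold change of -0.39 (adjusted p = 0.0488 by edgeR). Isl1 had log2 fold changes of -0.06 in MOG vs. SHAM and 0.03 in GB20 vs. MOG, with no call. Of 18 further subtype markers, 1 was called in MOG vs. SHAM, against 1.34% of all genes. Syt2, a synaptotagmin of some bipolar types that other retinal neurons also make, went from 33.1 ± 3.44 CPM in SHAM to 23.6 ± 4.10 in MOG (log2 fold change -0.48, adjusted p = 0.0412 by edgeR). Syt2 was also the 1 of these 18 called in GB20 vs. SHAM, where it was lower (-0.57, adjusted p = 0.0403 by edgeR), against 0.344% of all genes. None of 13 genes of the photoreceptor side of the synapse, and none of 10 further receptor genes, was called in any of the 6 comparisons. The share of all genes called ran from 0.00546% in GB20 vs. GV16 to 1.34% in MOG vs. SHAM.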

How the data were processed

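RNA from retinas was sequenced by the authors as poly(A)-selected, paired-end libraries and aligned with HISAT2 2.0.5 to mm10, per the labels. The deposited gene counts were made with featureCounts, and the deposited FPKM values were derived by the authors from each gene's length and its counts. The sources used here do not name the annotation release, the strand setting or how multi-mapped reads were counted.

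Counts of the 12 libraries were fitted together in edgeR 4.0.16 (R 4.3.3) with TMM factors, filterByExpr and the quasi-likelihood test with 1 term per group (8 residual degrees of freedom), and 6 contrasts were adjusted by the Benjamini-Hochberg method over 18299 genes, with calls at an adjusted p under 0.05. The fit was also run on counts simulated from the mean levels and spread of these data. Those counts held no GC trend and no deviation shared between libraries, so they do not test the effect of either. The alternatives were RLE factors, no filter, DESeq2 1.42.0 on the 6 libraries of a contrast, the replicate number as a block, removal of a loess trend of log2 CPM on gene length (span 0.5), and leaving out each library. Gene length is the one implied by the FPKM values and counts, and GC content is that of the longest GENCODE vM21 transcript. FPKM was used only to compare levels between genes. The 32 genes and the other lists were chosen with earlier results of these data known.

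Values are given in all 12 libraries for each gene called in any comparison, for each gene whose groups did not overlap in MOG vs. SHAM, GB20 vs. MOG or GV16 vs. MOG, and for 17 defining genes whatever their values. The GC content, and the values without replicate 2 of SHAM or GB20 set beside single genes, were chosen after the data were seen. A result for 1 other gene is not reported here.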

Additional observations from a re-analysis of the deposited data

How the results depend on the processing

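Of 3456 values of single genes over 18 alternatives, 3237 kept their side of the threshold and their sign and moved by less than their SE where uncalled, and 154 did so but changed sign without being called in either setting; 50 uncalled values moved by more than their SE, 9 were newly called, 6 lost a call and none that was called reversed. The lost calls were all of Irx6 in MOG vs. SHAM. The main fit called none of these values but Irx6 in MOG vs. SHAM, and many alternatives left out a library of neither compared group. The number that kept their side therefore does not measure how firm a call is. Without the filter, 3 of the 32 bipolar cell genes were called in MOG vs. SHAM (Irx6, Neto1 and Pcp2), 1 in GB20 vs. MOG (Neto1) and 1 in GB20 vs. SHAM (Gnao1), and over all genes 539 were called in MOG vs. SHAM, 140 in GB20 vs. MOG, 73 in GV16 vs. MOG, 8 in GB20 vs. GV16, 282 in GB20 vs. SHAM and 395 in GV16 vs. SHAM, against 245, 44, 30, 1, 63 and 120 with it. DESeq2 on the 6 libraries called 0 of the 32 in MOG vs. SHAM and 1 in GB20 vs. MOG (Neto1), and over all genes 126 in GB20 vs. MOG, 57 in GV16 vs. MOG, 4 in GB20 vs. GV16 and 124 in GB20 vs. SHAM. Deviations of same-numbered libraries from their group means correlated from -0.097 to 0.286, with 3 of 18 pairs over 0.1 (SHAM and GB20 replicates 2 and 3, and MOG and GV16 replicate 1), and no source says that a number marks one repeat of the experiment, so the libraries were not treated as paired; with the replicate block, Irx6 was again the only one of the 32 called in MOG vs. SHAM, and the calls over all genes were 404 in MOG vs. SHAM, 73 in GB20 vs. MOG, 47 in GV16 vs. MOG, 182 in GB20 vs. SHAM and 236 in GV16 vs. SHAM. With the length trend removed, 131 genes were called in GB20 vs. SHAM, and the median log2 fold change of the 32 genes in GB20 vs. MOG was -0.0551. With the length trend removed and the replicate block together, that median was -0.0547, 1 of the 32 was called in GB20 vs. SHAM (Gnao1) and 1 in GV16 vs. SHAM (Gabrr2), and over all genes 458 were called in MOG vs. SHAM, 90 in GB20 vs. MOG, 64 in GV16 vs. MOG, 2 in GB20 vs. GV16, 242 in GB20 vs. SHAM and 344 in GV16 vs. SHAM. The cause of these differences was not tested.

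Leaving out 1 library at a time gave 91 to 427 calls over all genes in MOG vs. SHAM, 13 to 83 in GB20 vs. MOG, 10 to 38 in GV16 vs. MOG, 0 to 4 in GB20 vs. GV16, 14 to 116 in GB20 vs. SHAM and 23 to 231 in GV16 vs. SHAM. Of the 32 genes, 0 to 2 were called in MOG vs. SHAM, 0 to 1 in GB20 vs. MOG and 0 to 0 in the other 4 comparisons. Their median log2 fold change ran from -0.00829 to 0.0507 in MOG vs. SHAM, -0.0445 to -0.0107 in GB20 vs. MOG, -0.011 to 0.0511 in GV16 vs. MOG, -0.0465 to -0.0257 in GB20 vs. GV16, -0.0557 to -0.00947 in GB20 vs. SHAM and 0.0099 to 0.0342 in GV16 vs. SHAM. The widest SE among the 32 genes in MOG vs. SHAM was 0.16, for Cabp2, and the narrowest 0.07, for Otx2; the part of depth in these was not tested.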
